A study of Homo sapiens with 4 samples.

Results

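TRiC, also called CCT, is the cytosolic chaperonin of human cells. Its 8 subunit genes, TCP1, CCT2, CCT3, CCT4, CCT5, CCT6A, CCT7 and CCT8, were found by symbol among the 20515 rows of the count table, and all 8 had a row and passed the filter on low counts. The rule that chose them used gene names only and no measured value. The members were nevertheless chosen with earlier results of these data known. The libraries held poly(A) RNA of T47D, a long-established human cell line derived from a luminal breast cancer. The baicalein group held 2 libraries of cells treated with baicalein, a plant flavonoid, and the control group 2 libraries of the same line without treatment. The sources used here give no dose, time or vehicle. Separate cultures are not named for the libraries of a group, so every p-value rests on a spread between libraries that may be technical.

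TRiC is built of stacked rings in which each of the related subunits holds a fixed place. Unfolded proteins enter the central chamber, and ATP binding and hydrolysis close a lid formed by the subunits themselves, so that the client folds inside. Actins and tubulins need this chamber to fold, as do several proteins with WD40 repeats. In the yeast complex CCT2, CCT4, CCT5 and CCT7 line the side of the ring that binds ATP more tightly, and TCP1, CCT3, CCT6 and CCT8 the other side.

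Depth was 56732569 and 38597207 counts in baicalein 1 and 2, and 45341857 and 45618604 counts in control 1 and 2. The members had 6429 to 21936 counts in each library, so counting error was small beside the differences described for subunits other than CCT4 and CCT8. All 8 luminal markers examined (ESR1, PGR, GATA3, FOXA1, EPCAM, KRT8, KRT18 and KRT19) were present in every library, at 37.8 to 5521 CPM, the unit used throughout for counts scaled to library size with TMM factors. Of these markers 7 were lower in baicalein libraries and EPCAM did not pass (median log2 fold change -1.06), and their summed level was 6238 and 6333 CPM in baicalein 1 and 2, against 12334 and 13612 CPM in control 1 and 2. Their part in the results was not tested. KRT5 and KRT14 had no row, VIM lay at 0.295 to 0.508 CPM, PTPRC at 0 to 0.161 CPM and COL1A2 at 0 to 0.106 CPM. COL1A1, chosen as a fibroblast marker, was present at 149.9 and 139.9 CPM in baicalein 1 and 2 and at 90.0 and 100.4 CPM in control 1 and 2, and its part in the results was not tested.

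Sequence around the starts of the subunit genes is shown first for 4 members that span the range of changes. Of the subunits, CCT2 had the largest decrease, CCT4 was the only subunit above control, CCT8 did not pass the test, and TCP1 shares its start region with a gene on the other strand. Each line gives the 250 bases before the RefSeq start of the gene (build GRCh38.p14, written 5′ to 3′ on the strand of the gene). Capitals mark matches to any of 9 short motifs on either strand.
CCT2 (chr12:69585209-69585458, plus strand): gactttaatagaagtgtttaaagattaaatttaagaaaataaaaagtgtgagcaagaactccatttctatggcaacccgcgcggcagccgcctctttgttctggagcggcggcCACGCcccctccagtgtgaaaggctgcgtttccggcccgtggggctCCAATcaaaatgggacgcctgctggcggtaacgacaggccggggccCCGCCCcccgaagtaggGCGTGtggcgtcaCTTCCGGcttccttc
CCT4 (chr2:61888672-61888921, minus strand): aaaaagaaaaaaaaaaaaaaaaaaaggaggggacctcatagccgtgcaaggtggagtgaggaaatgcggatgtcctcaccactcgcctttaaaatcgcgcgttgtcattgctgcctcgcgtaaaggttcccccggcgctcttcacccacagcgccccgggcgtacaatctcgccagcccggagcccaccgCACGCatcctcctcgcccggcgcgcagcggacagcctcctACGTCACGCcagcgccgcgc
CCT8 (chr21:29073649-29073898, minus strand): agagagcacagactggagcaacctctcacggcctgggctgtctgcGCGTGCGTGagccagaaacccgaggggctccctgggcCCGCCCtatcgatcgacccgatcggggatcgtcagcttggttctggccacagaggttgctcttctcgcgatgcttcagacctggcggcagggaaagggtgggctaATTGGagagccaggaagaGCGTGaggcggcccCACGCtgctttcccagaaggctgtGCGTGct
TCP1 (chr6:159789603-159789852, minus strand): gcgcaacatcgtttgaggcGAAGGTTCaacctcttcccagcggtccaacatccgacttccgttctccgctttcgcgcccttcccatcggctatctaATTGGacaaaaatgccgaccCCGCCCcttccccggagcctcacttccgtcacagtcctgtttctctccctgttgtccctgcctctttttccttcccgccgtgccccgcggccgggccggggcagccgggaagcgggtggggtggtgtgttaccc

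In these windows the CCT2 sequence held a GC box, a CCAAT box, the GCGTG core and an ETS site. The CCT4 sequence held neither a GC box nor a CCAAT box, but had GCGTG cores and the core TGACGT, which overlaps a GCGTG core there. RefSeq windows within 200 bases of the main GENCODE start were at hand for 6 of the 8 members, and CCT5 and CCT6A were not searched. The GC box, GGGCGG, bound by SP1-like factors, was found in the windows of 4 of 6 members and in 42.6% of all 35116 windows. The CCAAT box, bound by NF-Y, was found in 4 of 6 and in 32.0% of all windows. GCGTG, the core bound by the aryl hydrocarbon receptor and its partner, was found in 4 of 6 and in 32.2% of all windows. Heat shock elements, to which the heat shock factor HSF1 binds, were searched as GAANNTTC and TTCNNGAA. The first was found for TCP1 alone, against 5.78% of all windows, and the second in 0 of 6, against 6.62%. The ETS site CCGGAAG stood in 1 of 6 (8.52% of all windows), TGACGT in 1 of 6 (7.1%), the E-box CACGTG in 0 of 6 (6.34%) and the ATF4 composite site TGATGNAA in 0 of 6 (3.14%). The GENCODE starts of the 6 genes lie 70 to 173 bases inside these windows, so that the GC boxes of CCT2, CCT3 and TCP1 are downstream of them. The same holds for the CCAAT boxes of CCT2, CCT3 and CCT8, the ETS site of CCT2 and all marked matches of CCT4. Some GCGTG cores of CCT2 and CCT8 are downstream as well. A match in so short a motif is a description of the letters and not a binding site.

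Most TRiC subunit mRNAs were lower in baicalein-treated cells, by modest and unequal amounts. By edgeR's quasi-likelihood fit, with p-values adjusted by Benjamini and Hochberg's method over 18369 genes, 6 of 8 subunits fell, CCT4 was higher by a small margin and CCT8 did not pass. Over all tested genes 37.6% were called lower, 37.4% higher and 75.0% in either direction, so a call by itself is common in this comparison. The summed level of the 8 subunits was 1925 and 1935 CPM in baicalein 1 and 2, against 2451 and 2407 CPM in control 1 and 2. That is 0.795 times the control level on the mean, with SDs of 7.18 CPM in baicalein and 31.1 CPM in control libraries (n = 2 each). In bulk RNA, fewer cells that express a gene and less of its RNA per cell cannot be told apart. The median log2 fold change (baicalein over control) was -0.33 for the 8 subunits and 0.00 for all tested genes. The members' log2 fold changes lay between the 23.0 and the 55.3 percentile of all tested genes, so none was among the largest changes of the treatment. All 8 had groups that did not overlap, as had 86.9% of all tested genes.

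**Figure D1:**
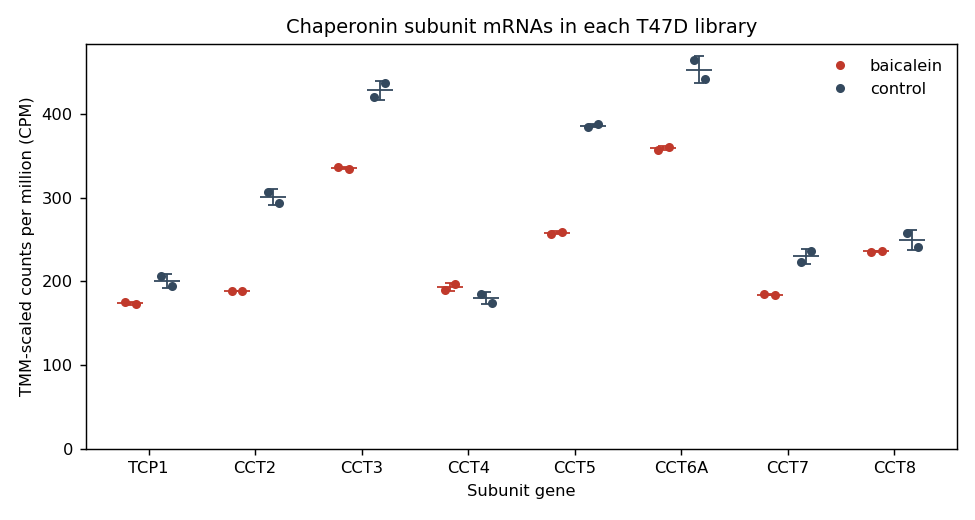
Level of each TRiC subunit mRNA in CPM scaled by TMM factors (y axis, from 0), with a dot for each library, a bar for the mean and whiskers for the SD of 2 libraries; baicalein is in red on the left of each pair and control in dark grey on the right. CCT2 lies at 189 and 189 CPM in baicalein libraries and at 308 and 294 CPM in control libraries, and CCT4 is the only subunit whose baicalein dots lie above the control dots.

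Of the subunits on the side that binds ATP more tightly in yeast, CCT2 and CCT5 fell most. CCT2 (ENSG00000166226, chromosome 12, positions 69585334 to 69601570 of GRCh38), the beta subunit, also described as a receptor for the autophagy of protein aggregates, had 189 CPM in each of baicalein 1 and 2, against 308 and 294 CPM in control 1 and 2. Both baicalein libraries were far below both controls, and the gap of 105 CPM exceeded the 13.2 CPM between the controls. Its log2 fold change was -0.67 (SE 0.04, 95% interval -0.76 to -0.58, edgeR adjusted p = 3.20e-12) or a change of -37.3%. CCT5 (ENSG00000150753, chromosome 5, positions 10249921 to 10266412), the epsilon subunit, in which inherited mutations cause a sensory neuropathy, had 257 and 259 CPM in baicalein libraries and 385 and 388 CPM in control libraries. The libraries of each group lay within 3.06 CPM of each other and the groups 125 CPM apart. The log2 fold change of CCT5 was -0.58 (SE 0.04, edgeR adjusted p = 1.95e-11). CCT7 (ENSG00000135624, chromosome 2, positions 73233420 to 73253021), the eta subunit, had 185 and 184 CPM in baicalein libraries and 224 and 236 CPM in control libraries, a log2 fold change of -0.32 (SE 0.04, edgeR adjusted p = 1.08e-06). Its control libraries differed by 12.4 CPM and the groups by at least 39.2 CPM.

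CCT4 (ENSG00000115484, chromosome 2, positions 61868089 to 61888804), the delta subunit, had a change of the other sign from its neighbours on that side. It had 190.2 and 197 CPM in baicalein 1 and 2, against 186 and 175 CPM in control 1 and 2. The groups did not overlap, but the gap of 4.65 CPM was smaller than the spread within either group, 6.92 CPM in baicalein and 10.8 CPM in control libraries. The log2 fold change was 0.10 (SE 0.05, 95% interval 0.01 to 0.20, edgeR adjusted p = 0.0437). This call was lost without control 2 (edgeR adjusted p = 0.0645), without baicalein 1 (0.116) and without baicalein 2 (0.314), and also with upper quartile factors (0.157), library totals alone (0.997), no filter (0.0581) and the replicate number as a block (0.0557). Over all alternatives its adjusted p ran between 2.97e-05 and 0.997 in tests against no change, so a rise of CCT4 is not settled by these libraries.

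On the other side of the ring, CCT3 and CCT6A, the 2 most abundant subunits, fell by like amounts. CCT3 (ENSG00000163468, chromosome 1, positions 156308968 to 156367873), the gamma subunit, had 336 and 335 CPM in baicalein libraries, against 421 and 437 CPM in control libraries (log2 fold change -0.35, SE 0.04, edgeR adjusted p = 9.08e-08). CCT6A (ENSG00000146731, chromosome 7, positions 56051630 to 56063989), the zeta subunit, had 357 and 361 CPM in baicalein libraries, against 464 and 442 CPM in control libraries (log2 fold change -0.34, SE 0.04, edgeR adjusted p = 2.36e-07). For both, the gap between groups of 84.3 and 81.1 CPM was several times the 16.0 and 22.3 CPM between the controls. TCP1 (ENSG00000120438, chromosome 6, positions 159778498 to 159789749), the alpha subunit that gave the complex its name, had 175 and 173 CPM in baicalein libraries and 207 and 195 CPM in control libraries. Its log2 fold change was -0.21 (SE 0.04, edgeR adjusted p = 0.000267), and the gap of 19.7 CPM exceeded the 11.9 CPM between the controls. CCT8 (ENSG00000156261, chromosome 21, positions 29055805 to 29073797), the theta subunit, had 236 and 237 CPM in baicalein libraries and 258 and 241 CPM in control libraries. The gap between its groups, 4.05 CPM, was smaller than the 17.3 CPM between the controls. The log2 fold change was -0.08 (95% interval -0.17 to 0.01, edgeR adjusted p = 0.119), which does not show that the level stayed the same. CCT8 passed as lower without control 2 (edgeR adjusted p = 0.000193), with upper quartile factors (0.0304) and with library totals alone (0.00134).

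Scaling touches values of this size. With library totals alone the median of all tested genes was -0.10 on the log2 scale. CCT4 and CCT8 then had log2 fold changes of 0.00 and -0.18, the first above that median and the second below it. The other subunits kept their direction under every alternative tried, with ranges of -0.78 to -0.64 for CCT2 and -0.31 to -0.17 for TCP1. In a test against a 1.5-fold change, 1 of 8 subunits, CCT2, passed as lower (edgeR's glmTreat, adjusted p = 0.0219), as did 19.5% of all tested genes.

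The proportions between subunit mRNAs do not depend on scaling, since each is taken within a library. Levels were divided by the length of the main GENCODE transcript, which runs from 1916 bases (CCT7) to 3675 bases (CCT5), to compare genes with each other. On this scale of CPM per kilobase, baicalein libraries held most CCT3 (156 ± 0.495), then CCT6A (132 ± 0.951), CCT8 (118 ± 0.402), CCT7 (96.2 ± 0.131), CCT2 (92.5 ± 0.114), CCT4 (76.9 ± 1.94), CCT5 (70.3 ± 0.433) and TCP1 (69.5 ± 0.645; SD, n = 2), with the last 2 within their SDs. In control libraries the order was CCT3 (199 ± 5.27), CCT6A (167 ± 5.80), CCT2 (147 ± 4.56), CCT8 (124 ± 6.09), CCT7 (120.0 ± 4.58), CCT5 (105 ± 0.590), TCP1 (80.3 ± 3.38) and CCT4 (71.5 ± 3.04; SD, n = 2), where of neighbours in the order only CCT8 and CCT7 overlapped between libraries. CCT2 thus stood below CCT8 and CCT7 after baicalein and above both in controls, whereas CCT4 was above CCT5 and TCP1 after baicalein and below both in controls. These orders depend on the length chosen. In CPM without length, CCT4 was below CCT5 in all libraries, and CCT2 was above CCT7 in all libraries. Per kilobase of the union of all exons, CCT4 was above TCP1 in all libraries, at 67.2 and 69.7 against 35.5 and 35.0 in baicalein 1 and 2, and at 65.6 and 61.8 against 41.9 and 39.5 in control 1 and 2.

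As a share of the summed level of the 8 subunits, CCT2 made up 11.4% in each baicalein library, against 14.7% and 14.3% in control 1 and 2. CCT5 made up 8.65% and 8.68% in baicalein libraries and 10.2% and 10.5% in control libraries. The shares of CCT4 and CCT8 moved the opposite way. CCT4 held 9.32% and 9.62% in baicalein libraries, against 7.19% and 6.89% in control libraries. CCT8 held 14.5% in each baicalein library, against 12.6% and 11.9% in control libraries. TCP1 held 8.64% and 8.49% in baicalein libraries, against 8.07% and 7.74% in control libraries. The shares of CCT3, CCT6A and CCT7 overlapped between the groups, with mean differences of -0.41, -0.14 and 0.03 percentage points. In all, 5.38 percentage points of share changed place between the groups, against 0.430 between the baicalein libraries and 2.18 between the controls. The exact two-sided permutation test with 2 libraries per group cannot give less than p = 0.333, and it gave this value for CCT2, CCT4, CCT5, CCT8 and TCP1.

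**Figure D2:**
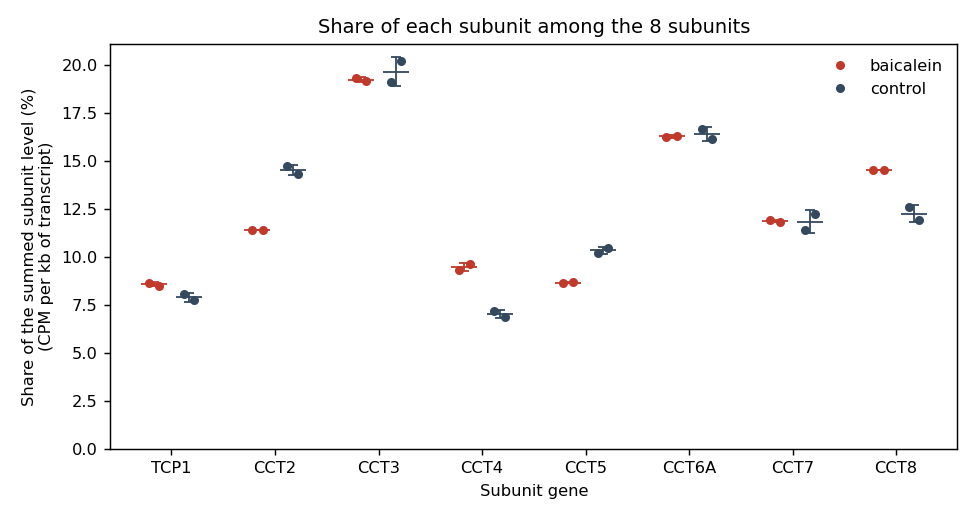
Share of each subunit in the summed level of the 8 subunits, in percent of CPM per kilobase of transcript (y axis, from 0), with a dot for each library, a bar for the mean and whiskers for the SD of 2 libraries; baicalein is in red on the left and control in dark grey on the right. CCT2 and CCT5 have lower shares in baicalein libraries (11.4% against 14.5% and 8.66% against 10.4% on the mean), CCT4 and CCT8 have higher ones, and CCT3, CCT6A and CCT7 overlap.

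Within a library, the ratio of CPM was taken for a pair chosen after its values were seen. CCT4 over CCT2 was 1.01 and 1.04 in baicalein 1 and 2, against 0.604 and 0.594 in control 1 and 2, a difference of 0.78 on the log2 scale. On the scale of CPM per kilobase of the main transcript, CCT3, the highest subunit, exceeded the lowest by 2.24 and 2.26 times in baicalein libraries, where the lowest was TCP1. In control libraries it exceeded the lowest, CCT4, by 2.66 and 2.93 times. This ratio was lower in both baicalein libraries than in either control library.

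Several subunit genes begin next to a gene on the opposite strand, which allows each to be compared with a neighbour that starts close by. These neighbours were looked up by position after the members' values were known. TCP1 and MRPL18, which codes for a mitochondrial ribosomal protein, start 63 bases apart. MRPL18 had 32.0 and 31.7 CPM in baicalein libraries and 40.8 and 40.7 CPM in control libraries, a log2 fold change of -0.36 (SE 0.05, edgeR adjusted p = 2.57e-06), so both genes of the pair fell. CCT5 and ATPSCKMT, which codes for a mitochondrial lysine methyltransferase, start 24 bases apart and fell together as well. ATPSCKMT had 20.9 and 19.2 CPM in baicalein libraries and 26.6 and 23.1 CPM in control libraries (log2 fold change -0.30, SE 0.07, edgeR adjusted p = 0.000759).

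For CCT6A the neighbour had a change of the other sign. PSPH, the phosphatase that makes serine in the last step of its synthesis, starts 26 bases from CCT6A. It had 54.0 and 52.6 CPM in baicalein libraries, against 42.1 and 40.0 CPM in control libraries, and thus rose with a log2 fold change of 0.38 (SE 0.05, edgeR adjusted p = 7.58e-07) where CCT6A fell. COMMD1, which codes for a regulator of NF-kB and of copper and endosomal traffic, starts 80 bases inside the first exon region of CCT4 on the other strand. It had 7.64 and 7.49 CPM in baicalein libraries and 9.04 and 8.72 CPM in control libraries (log2 fold change -0.23, SE 0.09, edgeR adjusted p = 0.0268). That call was lost with DESeq2 (0.169), without control 1 (0.0702) and without either baicalein library (0.0976 and 0.130), and neither COMMD1 nor CCT4 has a settled direction here. CCT7 and PRADC1 start 182 bases apart if the outermost GENCODE start of CCT7 is taken. PRADC1 fell with a log2 fold change of -1.40 (SE 0.10, edgeR adjusted p = 8.04e-12), beside -0.32 for CCT7.

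**Figure D3:**
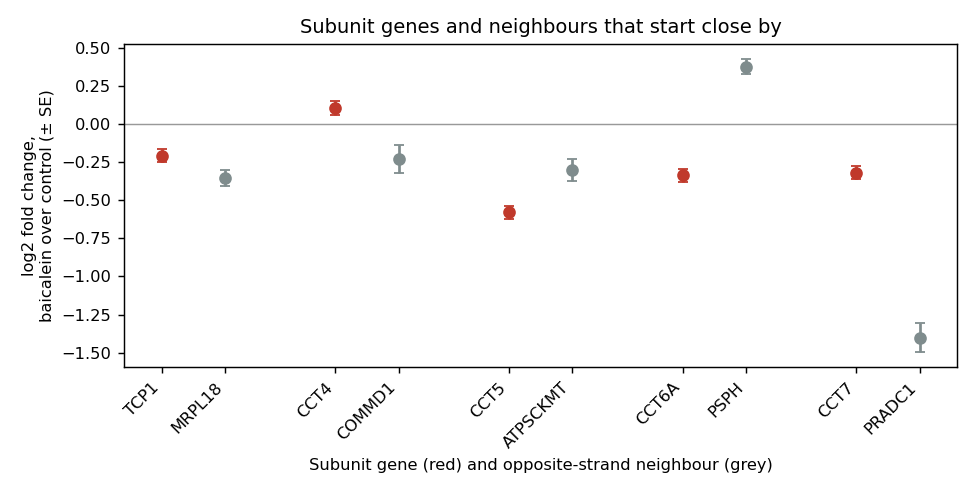
Log2 fold change, baicalein over control (y axis), with its standard error, for subunit genes (red) and the opposite-strand gene that starts close by (grey). TCP1 and CCT5 lie below 0 together with MRPL18 and ATPSCKMT, whereas PSPH lies above 0 beside CCT6A below it; CCT7 and PRADC1 both lie below 0, and the calls of CCT4 and COMMD1 were lost in several alternatives.

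Some reads could be placed on more than 1 gene. Stretches of 50 bases from the main transcripts of CCT2, CCT3 and CCT7 matched transcripts of 0 other genes. In CCT6A 6.67% of such stretches also occur in its copies CCT6P1, CCT6P2, CCT6P3 and CCT6P4, and in CCT8 8.59% occur in CCT8P1. CCT6P1 had 12.3 and 11.5 CPM in baicalein libraries and 8.17 and 8.10 CPM in control libraries, a rise (log2 fold change 0.55, SE 0.09, edgeR adjusted p = 5.35e-06) in a gene at a small part of the level of CCT6A. CCT8P1 stayed at 0.915 to 1.32 CPM in all libraries. In TCP1 22.1% of stretches were shared, mostly with ACAT2, whose exons overlap those of TCP1 on the opposite strand by 397 bases. ACAT2, a cytosolic thiolase gene, had 41.9 and 40.0 CPM in baicalein libraries and 64.5 and 62.8 CPM in control libraries, so it fell as TCP1 did, and its part in the change of TCP1 was not tested. In CCT5 49.8% and in CCT4 10.5% of stretches were shared, mostly with antisense genes on the other strand. The antisense gene at CCT5 had 1 to 9 counts in each library, against 9665 or more for CCT5. The sources used here do not say whether strand was used in counting.

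The chaperonin works within a chain of helpers and clients, and 10 lists of such genes held 95 tested genes, of which 27 were higher and 54 lower, beside 37.4% higher and 37.6% lower over all tested genes. Prefoldin, the jellyfish-shaped complex that hands unfolded actin and tubulin to TRiC, had members that moved in both directions. Of its 6 subunits PFDN4 and PFDN2 rose, PFDN6 and PFDN5 fell, and PFDN1 and VBP1 did not pass (median log2 fold change 0.00). PFDN2 had 76.5 and 79.0 CPM in baicalein libraries and 54.6 and 56.4 CPM in control libraries, while PFDN6 had 38.8 and 35.2 CPM in baicalein libraries and 54.3 and 56.7 CPM in control libraries. Of 8 tested genes of the prefoldin-like and R2TP complex, which assembles large machines together with HSP90, 5 were lower and 2 higher (median -0.42). RUVBL1, an ATPase of that complex, had a log2 fold change of -0.60, PIH1D1 of -0.68, and DNAAF10 of -0.95. Among proteins that bind TRiC and tune its clients, the phosducin-like gene PDCL fell (-0.33), and TXNDC9 and PDCD5 did not pass (0.13 and -0.13). PDCL3 had a log2 fold change of -0.24 (edgeR adjusted p = 0.0123), a call that was lost with DESeq2 (0.0664), without control 1 (0.226) and without baicalein 1 (0.0931).

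The clients are the proteins that TRiC folds. Of 17 tubulin genes 13 were lower, 2 higher and 2 did not pass, with a median log2 fold change of -0.81, where 37.6% of all tested genes were lower. Their summed level was 1925 and 1921 CPM in baicalein libraries, against 4722 and 5070 CPM in control libraries, 0.393 times the control level. The alpha-tubulin gene TUBA1B had 414 and 419 CPM in baicalein libraries and 1916 and 2084 CPM in control libraries (log2 fold change -2.26, SE 0.04, edgeR adjusted p = 1.76e-21). TUBB4B fell with -1.92 and TUBG1, the gamma-tubulin of the centrosome, with -1.65. The 2 that rose were TUBE1, epsilon-tubulin of the centriole (2.31), and TUBB2B (3.54), a beta-tubulin of neurons named here after its value was seen. TUBB2B had 13.0 and 12.2 CPM in baicalein libraries and 1.12 and 1.04 CPM in control libraries. Tubulin and actin genes have near-identical copies, which makes the split between single genes uncertain.

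Of 12 actin and actin-related genes 7 were lower and 2 higher (median -0.29), where 37.6% of all tested genes were lower and 37.4% higher. ACTB had 1344 and 1345 CPM in baicalein libraries and 3039 and 3343 CPM in control libraries, a log2 fold change of -1.25, and ACTG1 had 0.06, which did not pass. ACTR3, of the complex that branches actin filaments, rose (0.54) and ACTL6A, an actin-related part of chromatin remodellers, fell (-0.59). Of 16 other proteins described as TRiC clients 8 were higher and 8 lower (median 0.03), beside 75.0% of all tested genes called. The lower ones included the cell cycle genes CCNE1 (-2.67), PLK1 (-1.18) and CDC20 (-0.89).

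Downstream of TRiC, tubulin cofactors join alpha- and beta-tubulin into dimers. The list of these and related genes, which do not all have that role, split into 3 higher and 4 lower of 7. TBCD fell (log2 fold change -1.01), and TBCE and the TBCE-like gene TBCEL rose (0.91 and 1.02). The list of cytosolic HSP70, HSP90 and related genes, which do not all pass clients on to TRiC, held 19 genes. Of these 12 were lower and 5 higher (median -0.26), where 37.6% of all tested genes were lower and 37.4% higher. The 4 with the smallest adjusted p were HSP90AA1 (-1.32), DNAJA1 (-1.09) and HSPB1 (-1.04), which code for chaperones and a co-chaperone and fell, and HSF1 (0.54), which codes for the heat shock factor and rose.

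**Figure D4:**
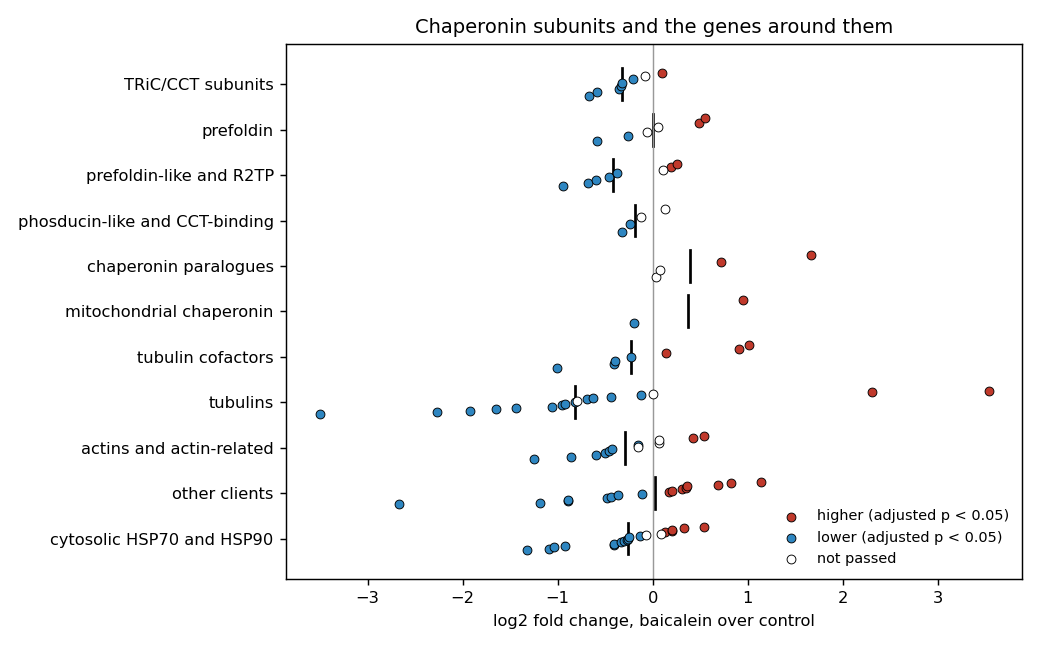
Log2 fold change, baicalein over control (x axis), of each tested gene in the TRiC subunit list and in 10 lists of helpers, relatives and clients (rows); a dot is a gene, red where it was higher, blue where lower and white where it did not pass (edgeR adjusted p threshold of 0.05), and a vertical bar is the median of the list. The subunits span -0.67 to 0.10, a narrower range than the tubulins at -3.50 to 3.54. Both ends of the tubulin range are genes at low levels. TUBB4A had 0.128 and 0.161 CPM in baicalein 1 and 2, and TUBB2B had 1.12 and 1.04 CPM in control 1 and 2.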

How the data were processed

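Poly(A) RNA of 4 T47D libraries was sequenced. The authors deposited whole-number counts per Ensembl gene in 1 table, not scaled to library size. The tools in the submitters' processing notes are RSEM 1.3.3, STAR 2.7.8a, DESeq2 1.34, cutadapt 2.3 and FastQC 0.11.8, with GRCh38 as the build and no roles. Annotation release, strand and rounding are not stated there. The smallest row total was 10, so genes below it were not analysed here. Columns were matched to samples by description, and groups and replicate numbers came from the titles. The replicates of a group differed by more than sampling noise (mean chi-square per gene 2.43 in baicalein and 9.61 in control libraries) and were counted as separate.

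Of the identifiers, 20470 matched the names table. Coordinates, overlaps and transcript lengths (APPRIS principal transcripts) came from GENCODE release 29 on GRCh38, which may not be the authors' release, and promoter windows from RefSeq (GRCh38.p14). The test was edgeR's robust quasi-likelihood fit (edgeR 4.0.16, R 4.3.3) with TMM factors and no covariates. filterByExpr with a minimum count of 10 kept 18369 genes. The threshold was 0.05 on p-values adjusted by Benjamini and Hochberg's method over these genes. CPM values use TMM factors, and the SE is the log2 fold change divided by the square root of F. Log2 CPM used a prior count of 2. Shares were compared with an exact permutation test in SciPy 1.17.1. The method was tested on simulated data in which few genes changed, equally up and down. Scaling where most genes are called, as here, was not tested by it. Alternatives were other scalings, filters and thresholds, DESeq2 1.42.0, limma-voom (limma 3.58.1), blocking on the replicate number, omitting each library in turn, and testing against a 1.5-fold change.

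The members and lists were chosen with earlier results of these data known. The naming rule took all members, up to 4 genes of each list by smallest adjusted p, genes whose exons overlap a member, markers and the 5 nearest profiles; 1 gene that it names is not reported here. Intervals cover the spread between these libraries only, and reads are not independent molecules where molecular identifiers are lacking.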

Additional observations from a re-analysis of the deposited data

How the results depend on the processing

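Alternatives were set against 6 lower subunits and 1 higher subunit. The number higher was 0 with upper quartile factors, library totals alone, no filter, a threshold of 0.01, the test against a 1.5-fold change and the replicate block, and 0 to 1 when each library was left out. The number lower was 6 to 7 when each library was left out, and 1 in the test against a 1.5-fold change. The lists of helpers and clients went to 9 higher and 22 lower in that test, against 27 and 54 over all lists together, and these totals stayed within 1.5 times under the other alternatives. Of 280 counts for single lists, 24 were outside 1.5 times, 14 of them in that test. Library totals alone gave 2 higher genes of the HSP70 and HSP90 list, against 5. Of 97 called genes of the lists, markers and neighbours, 17 lost the call in an alternative other than that test. The summed subunit level was 0.777 times control with upper quartile factors and 0.739 times with library totals alone, against 0.795. The 5.38 percentage points of share that changed place became 5.42 with plain CPM and 5.90 with the union of all exons as length, an alternative chosen after seeing the data, and 5.29 to 6.10 when each library was left out. Equal replicate numbers did not deviate together (r = 0.0136 across genes), so the numbers in the titles were not taken to pair the libraries. With them as a block 6 subunits were lower, 0 higher, and no other subunit's call changed than that of CCT4. DESeq2 and limma-voom each gave 6 lower and 1 higher. With 2 libraries per group, differences of the size seen for CCT4 and CCT8 are at the limit of what these data resolve. Leaving out a library assumes that the lone library of its group varies like the other group.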

Other observations

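Of 4 tested relatives of the TRiC subunits 2 rose and 2 did not pass, where 37.4% of all tested genes were higher. CCT6B, a close relative of CCT6A known from testis, had 4.11 and 4.05 CPM in baicalein libraries and 1.44 and 1.13 CPM in control libraries. It rose with a log2 fold change of 1.67 (SE 0.16, edgeR adjusted p = 3.56e-09), at a level far below that of CCT6A. Of the chaperonin-like genes behind Bardet-Biedl syndrome, BBS12 rose (0.72), and MKKS and BBS10 did not pass (0.08 and 0.03). HSPD1, the chaperonin of mitochondria, had 917 and 922 CPM in baicalein libraries and 481 and 470.1 CPM in control libraries, whereas HSPE1, which codes for its lid, had 60.1 and 57.9 CPM in baicalein libraries and 70.7 and 64.4 CPM in control libraries. The log2 fold changes were 0.95 for HSPD1 and -0.19 for HSPE1, with edgeR adjusted p = 0.00191 for HSPE1, whose call was lost without baicalein 2 (0.0696).

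Among 6407 genes with a symbol and a mean log2 CPM of at least 5, the 5 whose profile over the 4 libraries lay nearest to the mean profile of the TRiC subunits were PIAS1, ATP1B3, SPCS1, MR1 and C1QBP. Their Euclidean distances ran between 0.0119 and 0.0168 on the centred log2 CPM scale, and their log2 fold changes between -0.31 and -0.30. With 4 libraries in 2 groups this likeness is mainly a like fold change. Of the TRiC subunits, 0 lay as near to their own mean profile as the last of these genes.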
